A study of Danio rerio with 18 samples.

Results

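The 6 genes of the MHC class II antigen presentation pathway are described here in adult zebrafish ventricles: the regulator ciita (ENSDARG00000090851), the invariant chain genes cd74a (ENSDARG00000009087) and cd74b (ENSDARG00000036628), and the class II chain genes mhc2daa (ENSDARG00000031745), mhc2dab (ENSDARG00000079105) and mhc2d4b (ENSDARG00000101030). They were found by symbol in both deposited count tables and are 6 of 32520 gene identifiers. They were chosen by measured values: their counts were high in ventricles expressing the oncogene HRAS and low again under rapamycin. The values of those contrasts are therefore described below without a test.

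Class II molecules are pairs of an α and a β chain on the surface of macrophages, dendritic cells and B cells, where they show peptides from engulfed material to helper T cells. The invariant chain, CD74, binds new class II pairs in the endoplasmic reticulum, fills the peptide groove and steers the complex to endosomes, where cathepsins degrade it. CIITA does not bind DNA itself. In mammals it is recruited to class II and CD74 promoters by RFX, CREB and NF-Y proteins, and interferon gamma induces it.

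The 15 libraries of messenger RNA fell into 5 groups of 3. All fish carried cmcl2:Gal4-ERT2 (cmlc2 in the sample titles), a tamoxifen-activated Gal4 under a cardiomyocyte promoter, so that transgenes were driven in heart muscle cells. The 7 dpci group carried the driver alone, received no treatment and was taken 7 days after cryoinjury, a freezing injury after which the zebrafish heart regenerates. GFP-HRAS rapamycin and GFP-HRAS DMSO fish also carried UAS:GFP-HRAS, a fusion of the oncogene with green fluorescent protein, and RFP rapamycin and RFP DMSO fish carried UAS:RFP, a red fluorescent protein. These 4 groups received 4 overnight pulses of 2.5 uM 4-OHT (4-hydroxytamoxifen). Over 16 days they were given either rapamycin at 0.5 uM, which inhibits the growth kinase TOR, or 0.05% DMSO, its vehicle. Their ventricles are labelled uninjured, and fish ages are not among the labels. The title of the series sets oncogene-induced heart growth beside regeneration.

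Libraries held 15861618 to 20003711 counts. The 14 cardiomyocyte markers checked were detected in every group and summed to 42476 to 135799 CPM, lowest in GFP-HRAS DMSO. CPM are counts scaled to a common library size, here with trimmed-mean (TMM) factors. Within groups, GFP-HRAS rapamycin replicate 3 was the lowest of its group for all 6 genes, and RFP rapamycin replicate 2 stood apart from the other two RFP rapamycin libraries in mhc2daa and mhc2dab. Calls of the 6 genes that changed without either library are given both ways.

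The 6 genes together took 0.126%, 0.113% and 0.107% of all counts in 7 dpci libraries. In GFP-HRAS rapamycin they took 0.0397%, 0.0303% and 0.0106%, in GFP-HRAS DMSO 0.633%, 0.491% and 0.492%, in RFP rapamycin 0.00596%, 0.0143% and 0.00726%, and in RFP DMSO 0.0150%, 0.00578% and 0.0106%. GFP-HRAS DMSO libraries were thus highest and 7 dpci libraries next, with no overlap between those groups or with the rest, while the GFP-HRAS rapamycin range touched that of both RFP groups. In RNA from whole ventricles, a change in the number of cells of a type and a change in RNA per cell cannot be told apart.

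The regulator came first. ciita had 7.52, 8.94 and 6.51 CPM in 7 dpci libraries, 2.49, 2.13 and 1.53 in GFP-HRAS rapamycin, 37.9, 23.9 and 21.2 in GFP-HRAS DMSO, 1.09, 1.12 and 1.96 in RFP rapamycin, and 2.09, 1.65 and 0.992 in RFP DMSO. The GFP-HRAS DMSO and 7 dpci ranges stood clear of each other and of the rest, and the ranges of the 3 lower groups overlapped. As counts, the lowest of these values is 17 counts in RFP rapamycin replicate 1, and the highest is 830 in GFP-HRAS DMSO replicate 1.

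The invariant chain gave the largest counts. cd74a had 846, 751 and 779 CPM in 7 dpci libraries, 258, 207 and 90.7 in GFP-HRAS rapamycin, 3600.1, 2522 and 2303 in GFP-HRAS DMSO, 48.0, 96.8 and 68.1 in RFP rapamycin, and 133, 42.8 and 84.1 in RFP DMSO. Its paralogue cd74b had 212, 225 and 233 CPM in 7 dpci, 75.5, 56.5 and 23.6 in GFP-HRAS rapamycin, 775, 575 and 639.9 in GFP-HRAS DMSO, 16.2, 29.3 and 19.2 in RFP rapamycin, and 27.0, 13.6 and 22.1 in RFP DMSO. Both genes placed GFP-HRAS DMSO, then 7 dpci, then GFP-HRAS rapamycin above the RFP groups by mean. The order of the RFP groups differed between cd74a and cd74b. In both genes only GFP-HRAS rapamycin replicate 3 reached down into the range of the RFP libraries.

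The α chain gene mhc2daa had 89.6, 73.1 and 47.7 CPM in 7 dpci, 31.3, 30.9 and 3.85 in GFP-HRAS rapamycin, 449, 337 and 374 in GFP-HRAS DMSO, 0.895, 16.9 and 2.26 in RFP rapamycin, and 3.91, 2.87 and 3.14 in RFP DMSO. Its spread was wide within GFP-HRAS rapamycin, through replicate 3, and within RFP rapamycin, through replicate 2.

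For the β chain gene mhc2dab, CPM were 50.9, 39.6 and 19.6 in 7 dpci, 20.2, 22.7 and 1.96 in GFP-HRAS rapamycin, 356, 238 and 281 in GFP-HRAS DMSO, 0, 9.88 and 0.151 in RFP rapamycin, and 0.130, 0 and 0 in RFP DMSO. The 6 RFP libraries held 0, 177 and 2 counts under rapamycin and 2, 0 and 0 under DMSO, so that 177 of their 181 counts came from RFP rapamycin replicate 2. A count of 0 still allows up to 0.192 CPM in RFP rapamycin replicate 1, 0.183 in RFP DMSO replicate 2 and 0.165 in RFP DMSO replicate 3, by counting error alone.

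A further β chain gene, mhc2d4b, had 5.03, 7.65 and 6.34 CPM in 7 dpci, 2.39, 1.87 and 0.794 in GFP-HRAS rapamycin, 30.3, 27.0 and 17.0 in GFP-HRAS DMSO, 0.511, 0.726 and 0.602 in RFP rapamycin, and 0.718, 0.244 and 0.717 in RFP DMSO. Every GFP-HRAS rapamycin library lay above every RFP rapamycin library, the only one of the 6 genes for which this held. The RFP values rest on 4 to 13 counts a library.

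**Figure D1:**
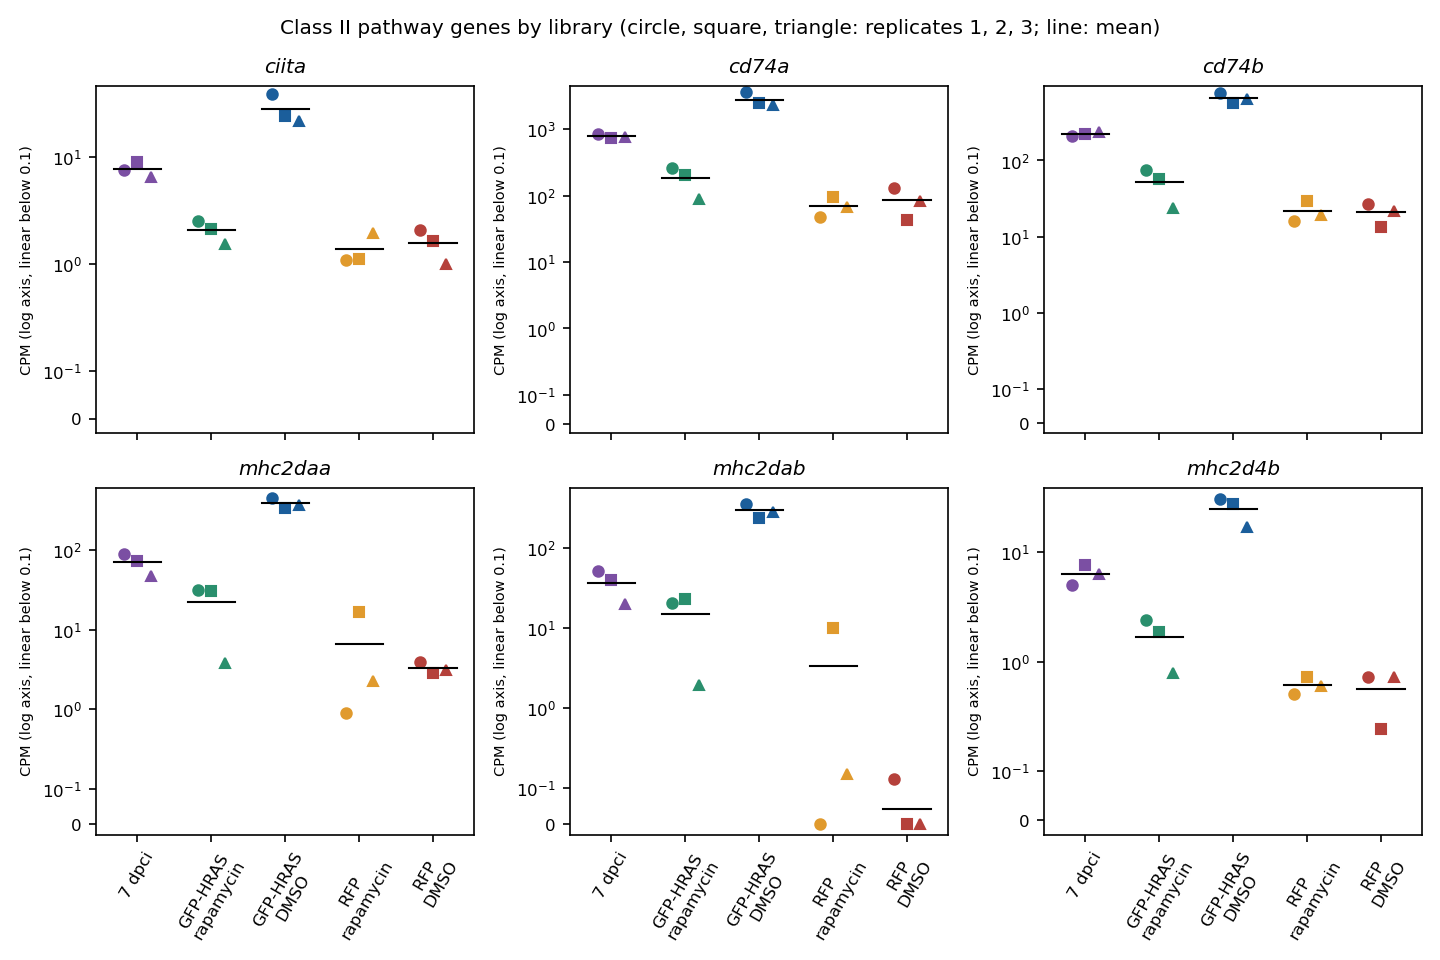
Scaled counts (CPM, log axis that is linear below 0.1) of the 6 class II pathway genes in each of the 15 libraries, by group, with the group mean as a line. GFP-HRAS DMSO is highest for every gene and 7 dpci is next by mean, though for mhc2dab it overlaps GFP-HRAS rapamycin. mhc2dab is at or near 0 in 5 of the 6 RFP libraries, with 9.88 CPM in the other.

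In the contrasts by which the genes were picked, GFP-HRAS DMSO over RFP DMSO gave log2 fold changes of 4.14 ± 0.38 for ciita, 5.03 ± 0.53 for cd74a, 4.996 ± 0.46 for cd74b, 6.87 ± 1.098 for mhc2daa and 5.45 ± 0.48 for mhc2d4b (± SE, n = 3 each). With 20658 counts against 2, mhc2dab had a ratio of 7201 with a 95% counting interval of 1993 to 59469. For GFP-HRAS rapamycin over GFP-HRAS DMSO, the log2 fold changes were -3.75 ± 0.37 for ciita, -3.93 ± 0.50 for cd74a, -3.68 ± 0.43 for cd74b, -4.14 ± 0.95 for mhc2daa, -4.29 ± 1.26 for mhc2dab and -3.87 ± 0.43 for mhc2d4b. In both contrasts the groups did not overlap for any of the 6 genes. Over all genes, groups did not overlap upward for 31.8% in the first contrast and downward for 18.1% in the second. The choice had no numeric threshold, and nothing is read from these values.

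Of the comparisons with the injured hearts, 7 dpci against RFP rapamycin compares no library that the contrasts above compare. Its fit still took the filter, the scaling and the spread from all 15 libraries. The genes were also chosen with earlier results of these data known, so it is not fully independent of the choice. The 5 genes that pass the filter on low counts in the RFP libraries alone rose in 7 dpci, by 2.47 to 3.48 on the log2 scale. mhc2dab enters the fit only through the groups in which it is high, and is described apart. ciita was 5.56-fold higher (2.47 ± 0.34, adjusted p = 0.00030). The invariant chains were 11.2-fold higher for cd74a (3.48 ± 0.45, adjusted p = 0.000224) and 10.4-fold higher for cd74b (3.37 ± 0.39, adjusted p = 0.000143).

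Among the chains, mhc2d4b was 10.2-fold higher in 7 dpci than in RFP rapamycin (log2 3.35 ± 0.43, adjusted p = 0.000223) and mhc2daa 10.4-fold higher (3.37 ± 0.87, adjusted p = 0.00972). Without RFP rapamycin replicate 2 the mhc2daa log2 fold change was 5.49 (edgeR adjusted p = 0.00162). These p-values are from edgeR's quasi-likelihood test on all 15 libraries with Benjamini-Hochberg adjustment over 16421 genes. Of all genes tested, 17.2% passed with a higher level in 7 dpci, and for 26.7% every 7 dpci library lay above every RFP rapamycin library, as held for these 5 genes. The median log2 fold change was 3.37 over the 5 genes and 0.00 over all genes.

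For mhc2dab the log2 fold change of 7 dpci over RFP rapamycin was 3.41 ± 1.14 (edgeR adjusted p = 0.0337), given as a description. It missed the threshold in DESeq2 (adjusted p = 0.0657), in edgeR's fit of the 6 libraries alone (0.0785) and when edgeR was run without 7 dpci replicate 1 (0.0836), 7 dpci replicate 2 (0.0703), RFP rapamycin replicate 1 (0.0751) or RFP rapamycin replicate 3 (0.0748). As summed counts, mhc2dab was 9.78 times higher in 7 dpci than in RFP rapamycin (95% counting interval 8.39 to 11.5). Without RFP rapamycin replicate 2, where 2 counts remained, the ratio was 541 (149 to 4467), an alternative chosen after the data were seen. The 7 dpci libraries come from the other count table and differ from the other groups in strain, 4-OHT and vehicle or drug as well as injury, which cannot be told apart in any comparison with them.

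RFP DMSO libraries entered the choice of the genes as a group where they were low, so values of 7 dpci against it are a description and no support. In edgeR's test, which 18.8% of all genes passed upward, the 5 genes passing the filter in the RFP libraries did so too. The log2 fold changes were 2.28 ± 0.33 for ciita (adjusted p = 0.000451 in edgeR), 3.19 ± 0.44 for cd74a, 3.42 ± 0.39 for cd74b, 4.40 ± 0.92 for mhc2daa and 3.48 ± 0.43 for mhc2d4b, the largest adjusted p among them being 0.00306. mhc2dab had 2158 counts in 7 dpci against 2 in RFP DMSO, a ratio of 931 (95% counting interval 257 to 7695). Since the comparisons of 7 dpci share its libraries, they are not separate evidence.

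Set against GFP-HRAS DMSO, the injured hearts were lower. The genes were chosen for high values in GFP-HRAS DMSO, which favours this direction, so the counts and p-values here describe these libraries and are no independent support. By edgeR, 5 of the 6 genes fell, where 15.5% of all genes did, and the groups did not overlap for all 6, as held downward for 28.2% of all genes. ciita was 3.61-fold lower in 7 dpci (log2 -1.85 ± 0.31, adjusted p = 0.00134), cd74a 3.55-fold (-1.83 ± 0.42, 0.00714), cd74b 2.97-fold (-1.57 ± 0.36, 0.00701) and mhc2d4b 3.91-fold lower (-1.97 ± 0.37, 0.00241), all by edgeR.

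For the chains of wide spread, 7 dpci against GFP-HRAS DMSO was close to the threshold. mhc2daa had a log2 fold change of -2.46 ± 0.82 (edgeR adjusted p = 0.0387), and its call was lost when any 1 of the 6 libraries was left out, with adjusted p between 0.0718 and 0.125. mhc2dab, at -2.99 ± 1.09, missed the threshold (edgeR adjusted p = 0.0539), but passed it with library totals in place of TMM factors (0.0335), with a replicate block (0.0361) and in the fit of the 6 libraries alone (0.00186).

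Low values in GFP-HRAS rapamycin were likewise part of the choice, which favours higher values in 7 dpci, and the same limit holds. Against GFP-HRAS rapamycin, 4 of the 6 genes rose in 7 dpci, where 8.36% of all genes did. These were ciita (log2 1.89 ± 0.32, adjusted p = 0.00267), cd74a (2.096 ± 0.42, 0.00628), cd74b (2.11 ± 0.37, 0.00297) and mhc2d4b (1.90 ± 0.39, 0.00635), by edgeR. mhc2daa (1.67 ± 0.81, adjusted p = 0.164) and mhc2dab (1.30 ± 1.04, 0.403) did not pass. The same 4 genes passed when any 1 library was left out. The log2 fold change then ran from 1.77 to 2.43 for cd74a, 1.17 to 2.02 for mhc2daa and 0.776 to 1.72 for mhc2dab. Every 7 dpci library lay above every GFP-HRAS rapamycin library for 5 of the 6 genes, all but mhc2dab, and for 20.2% of all genes.

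**Figure D2:**
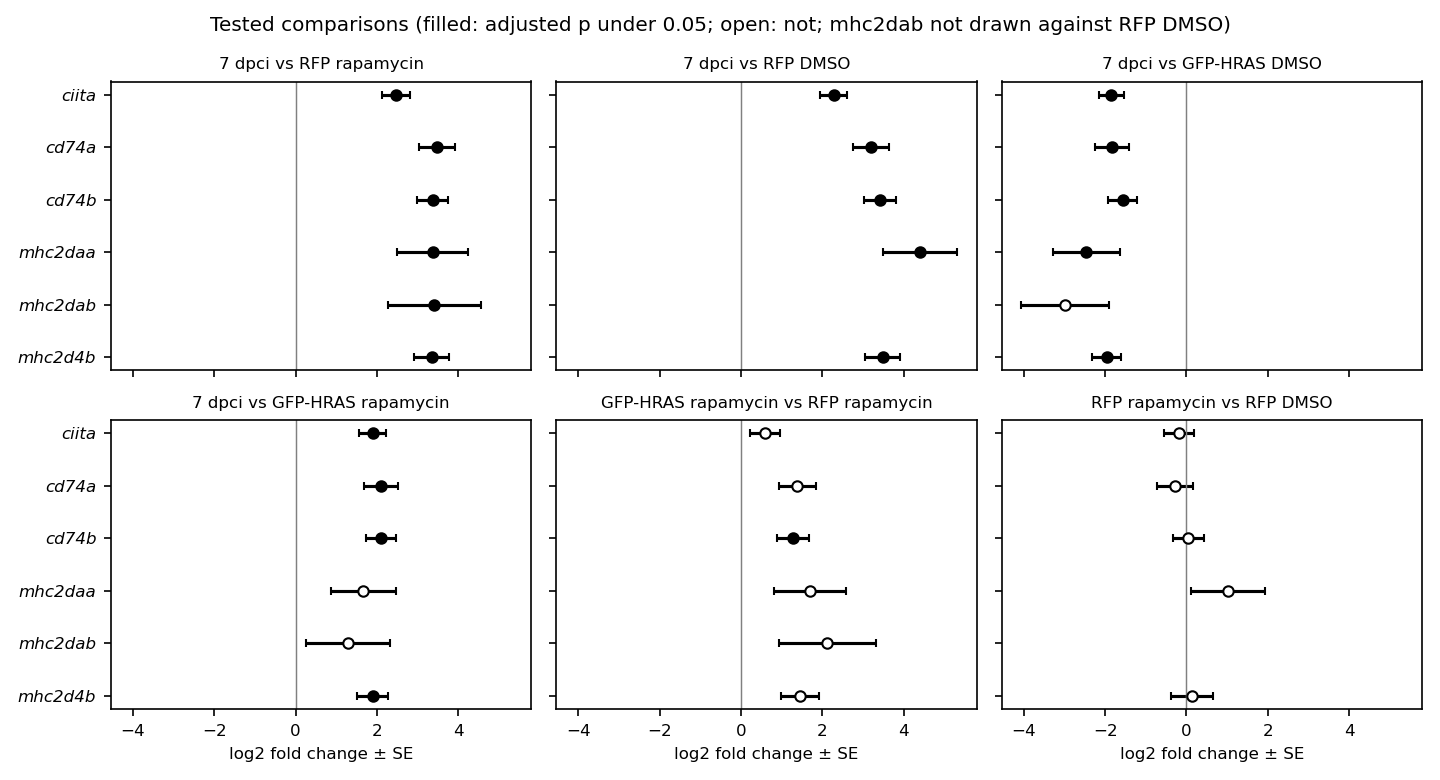
Log2 fold changes (± SE) of the 6 genes in the tested comparisons, with filled points at an edgeR adjusted p under 0.05. Only 7 dpci against RFP rapamycin compares no library of the contrasts by which the genes were picked. The other panels, and mhc2dab in every panel, are a description. The 7 dpci group lies above both RFP groups and GFP-HRAS rapamycin and below GFP-HRAS DMSO, and mhc2daa and mhc2dab have the widest errors; mhc2dab is not drawn against RFP DMSO, which holds 2 counts.

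GFP-HRAS rapamycin against RFP rapamycin compares the lines under the drug. It uses the GFP-HRAS rapamycin libraries, whose low values were part of the choice. Here too mhc2dab enters the fit only through the groups in which it is high, so its values are a description. GFP-HRAS rapamycin exceeded RFP rapamycin in fitted value for all 6, but 1 of the 6 rose by the test, where 10.4% of all genes did. That gene was cd74b, 2.41-fold higher (log2 1.27 ± 0.39, adjusted p = 0.0461). cd74a (1.38 ± 0.45, 0.0548), mhc2d4b (1.45 ± 0.47, 0.0510), mhc2daa (1.71 ± 0.89, 0.190), mhc2dab (2.13 ± 1.19, 0.224) and ciita (0.58 ± 0.37, 0.277) did not pass in edgeR's fit of 12 libraries and 16044 genes. Groups did not overlap upward for 1 of the 6, mhc2d4b, and for 16.8% of all genes.

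These calls turned on single libraries and on the method. cd74a and mhc2d4b passed in DESeq2 (adjusted p = 0.0165 and 0.0199) and with library totals in place of TMM factors in edgeR (0.0419 and 0.0409), and cd74a with no filter on low counts (0.0475). The cd74b call was lost in the fit of the 6 libraries alone (edgeR adjusted p = 0.112), with a replicate block (0.0802) and without GFP-HRAS rapamycin replicate 1 (0.188) or 2 (0.127), or RFP rapamycin replicate 1 (0.132), 2 (0.0682) or 3 (0.105). Without GFP-HRAS rapamycin replicate 3, cd74a (0.0136) and mhc2d4b (0.00991) passed by edgeR. That library also had the lowest ptprc of its group, 17.1 CPM beside 32.1 and 28.9 in the others, and the lowest csf1ra, 10.3 beside 48.8 and 27.1. ptprc encodes the leukocyte protein CD45 and csf1ra a receptor of macrophages and pigment cells, and their part in the result was not tested.

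Leaving out RFP rapamycin replicate 2 raised the mhc2daa log2 fold change to 3.82 (edgeR adjusted p = 0.0303) for GFP-HRAS rapamycin against RFP rapamycin. For mhc2dab it took the ratio of summed counts to 219 (95% counting interval 60.4 to 1811), from 3.96 (3.36 to 4.68) with all libraries. These intervals cover counting error only, and the ratios were not tested. In edgeR's fit without that library, the mhc2dab log2 fold change was 7.61 (adjusted p = 0.0200). That leave-out takes away the library with nearly all of the mhc2dab counts of the RFP line. The ratio without that library was chosen after the data were seen, and the mhc2dab values are a description. The 95% interval of the ciita log2 fold change, -0.14 to 1.30, contains 0 and also a doubling.

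In the RFP line, rapamycin against DMSO moved none of the 6 genes past the threshold, and 0% of all genes passed it. That count was 0 in edgeR, with 787 genes at an unadjusted p under 0.05, and 27 in DESeq2. The log2 fold changes were -0.19 for ciita, -0.29 for cd74a, 0.05 for cd74b, 1.03 for mhc2daa and 0.13 for mhc2d4b, each with an edgeR adjusted p of 1. Without RFP rapamycin replicate 2 the mhc2daa value was -1.08 (edgeR adjusted p = 1). The mhc2dab counts were 179 in RFP rapamycin and 2 in RFP DMSO, a ratio of 95.2 (26.0 to 792) that rests on replicate 2. Whether the rapamycin effect differed between the lines was not tested for these genes, since the GFP-HRAS contrast was part of their choice.

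By level, the groups ordered as GFP-HRAS DMSO, 7 dpci, GFP-HRAS rapamycin and then the RFP groups. The high place of GFP-HRAS DMSO and the low places of GFP-HRAS rapamycin and RFP DMSO are the pattern by which the genes were chosen, so the order is a description. Each step involves groups of that choice, so its calls are likewise a description and no independent support. Neighbours in that order differed by the test for ciita, cd74a, cd74b and mhc2d4b in the first 2 steps, for mhc2daa in the first, for cd74b alone in the third, and for none between the RFP groups. For mhc2dab no step passed in the edgeR fits of 12 and 15 libraries.

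The chains did not keep a fixed proportion to the invariant chain. Per 1000 cd74a counts, mhc2d4b stayed between 5.41 and 10.7 in all 15 libraries. cd74b averaged 283 ± 27.8 in 7 dpci, 275 ± 16.3 in GFP-HRAS rapamycin, 240.4 ± 33.0 in GFP-HRAS DMSO, 307 ± 28.6 in RFP rapamycin and 261 ± 56.6 in RFP DMSO (SD, n = 3 each), a narrow range beside the differences in level.

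The α chain gene varied more on this scale. mhc2daa had 106, 97.3 and 61.2 counts per 1000 cd74a counts in 7 dpci, 121, 150 and 42.5 in GFP-HRAS rapamycin, 125, 134 and 162 in GFP-HRAS DMSO, 18.6, 175 and 33.1 in RFP rapamycin, and 29.5, 67.0 and 37.4 in RFP DMSO. Its β partner by symbol, mhc2dab, had 60.2, 52.8 and 25.2 in 7 dpci, 78.2, 110.0 and 21.6 in GFP-HRAS rapamycin, 98.8, 94.3 and 122 in GFP-HRAS DMSO, 0, 102 and 2.21 in RFP rapamycin, and 0.983, 0 and 0 in RFP DMSO. RFP rapamycin replicate 2 therefore carried mhc2dab at the proportion of the GFP-HRAS DMSO libraries (95% counting interval 87.0 to 119), while the upper bound in RFP rapamycin replicate 1, with 0 counts, was 4.92.

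mhc2dab counts per 100 mhc2daa counts were 56.8, 54.2 and 41.2 in 7 dpci, 64.5, 73.5 and 50.8 in GFP-HRAS rapamycin, 79.1, 70.5 and 75.1 in GFP-HRAS DMSO, 0, 58.4 and 6.67 in RFP rapamycin, and 3.33, 0 and 0 in RFP DMSO. The 5 RFP libraries with almost no mhc2dab thus still had mhc2daa, at 14 to 60 counts each.

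Beyond the 6 genes, 13 further genes with class II symbols are in the tables. 10 of them had 3 counts or fewer in every library, 2 of those with 0 in all libraries, and 3 passed the filter on low counts: mhc2dga, an α chain gene by symbol, and the β chain genes mhc2dgb and mhc2dhb. In the RefSeq gene table, which is of assembly GRCz12tu and was used only for names and neighbours, mhc2dga, mhc2dgb, mhc2dhb and mhc2daa follow one another on one chromosome. mhc2d4b, cd74a, cd74b and ciita are on other chromosomes, and mhc2dab was not found there by symbol.

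Within groups, these 3 chains varied between libraries otherwise than mhc2daa did. mhc2dhb had 26.1, 48.8 and 49.6 CPM in 7 dpci, 13.7, 5.94 and 7.27 in GFP-HRAS rapamycin, 191.0, 133 and 5.42 in GFP-HRAS DMSO, 3.77, 1.34 and 4.22 in RFP rapamycin, and 6.13, 0.244 and 3.25 in RFP DMSO. In GFP-HRAS DMSO, mhc2dga had 53.5, 37.97 and 0.757 CPM and mhc2dgb 54.6, 37.3 and 0.876. All 3 were thus low in GFP-HRAS DMSO replicate 3, the library in which mhc2daa and mhc2dab were at 374 and 281 CPM.

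The same contrast shows per 1000 cd74a counts. In GFP-HRAS DMSO, mhc2dhb had 53.1, 52.8 and 2.35 (95% counting interval for the last 1.97 to 2.78), mhc2dga 14.9, 15.1 and 0.328, and mhc2dgb 15.2, 14.8 and 0.380. In the RFP line, mhc2dhb had 78.6, 13.8 and 61.9 under rapamycin and 46.2, 5.71 and 38.7 under DMSO. RFP rapamycin replicate 2, high in mhc2daa and mhc2dab, was thus the lowest of its group in mhc2dhb, and likewise in mhc2dga (18.6, 4.61 and 15.5) and mhc2dgb (12.0, 4.04 and 27.6).

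Within 7 dpci, replicate 1 had the highest mhc2daa and the lowest of the 3 chains per 1000 cd74a counts, with 30.8 against 65.1 and 63.7 for mhc2dhb, 4.64 against 18.01 and 18.5 for mhc2dga and 4.42 against 14.5 and 14.5 for mhc2dgb. In RFP DMSO, replicate 2 had the highest mhc2daa proportion, with 0 counts of mhc2dga and mhc2dgb. Within GFP-HRAS rapamycin, replicate 2 had the highest mhc2daa and mhc2dab proportions, and 28.7 for mhc2dhb beside 53.1 and 80.2. In each of the 5 groups, the library with the highest mhc2daa per cd74a was the one with the lowest mhc2dhb per cd74a. This was seen in the data and not tested, and near-identical class II genes may share or lose reads in counting.

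**Figure D3:**
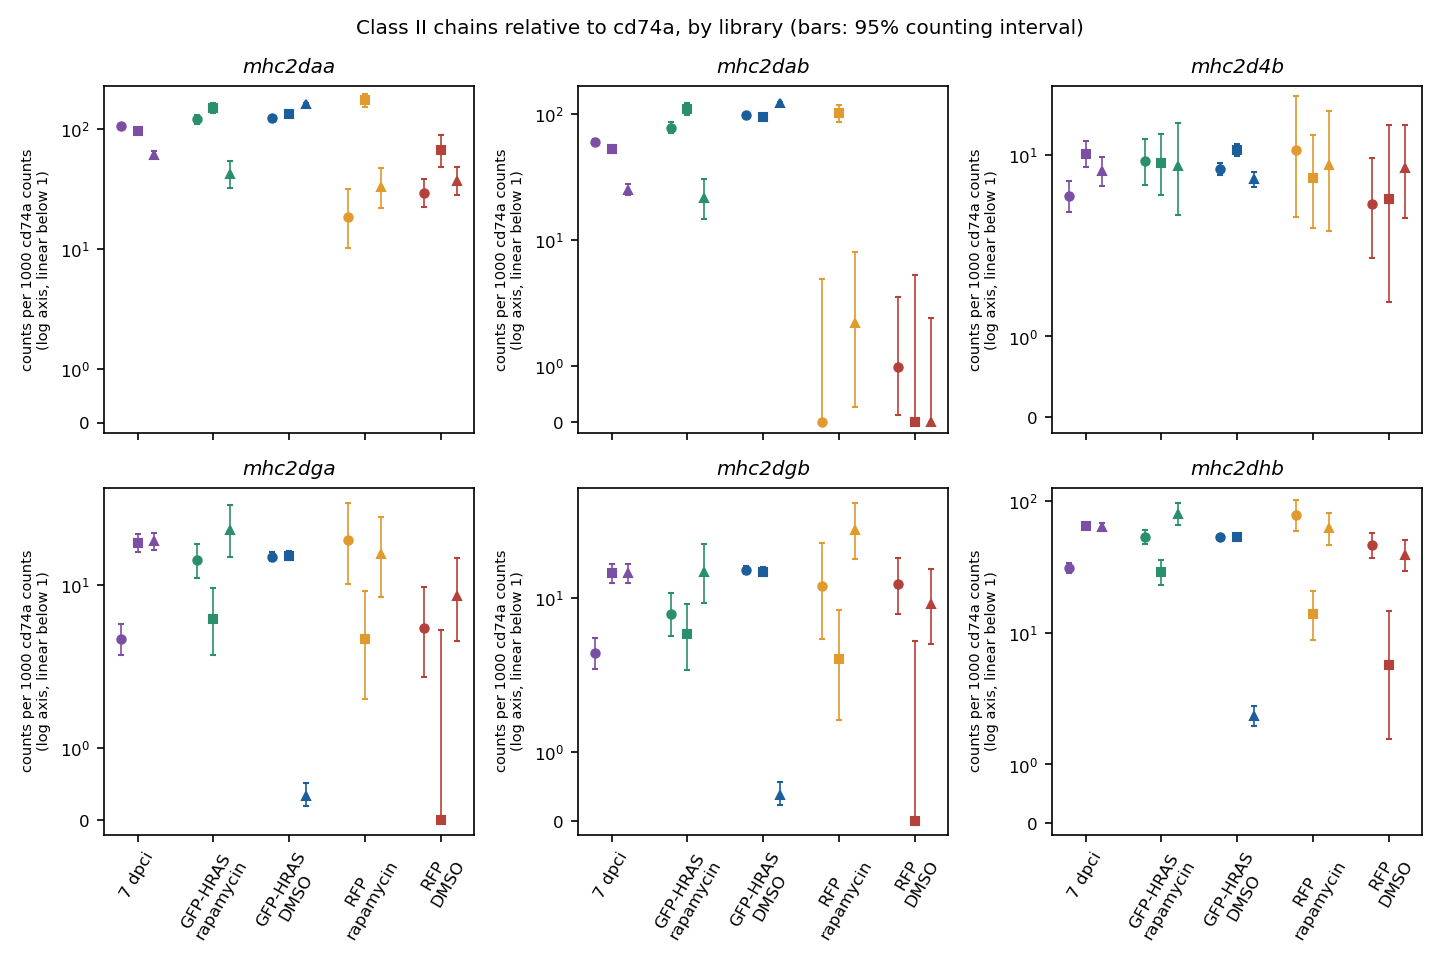
Counts of 6 class II chains per 1000 cd74a counts in each library, with 95% counting intervals (log axis that is linear below 1). mhc2d4b stays between 5.41 and 10.7 across libraries. GFP-HRAS DMSO replicate 3 (triangle) is high in mhc2daa and mhc2dab and low in mhc2dga, mhc2dgb and mhc2dhb, and RFP rapamycin replicate 2 (square) is high in mhc2dab.

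By group, all 3 rose in 7 dpci against RFP rapamycin, where 17.2% of all genes did. The log2 fold changes were 3.75 ± 1.05 for mhc2dhb (edgeR adjusted p = 0.0149), 3.74 ± 1.15 for mhc2dga (0.0227) and 3.23 ± 1.16 for mhc2dgb (0.0457). Each call was lost in at least 1 leave-out, with adjusted p up to 0.0610 for mhc2dhb, without RFP rapamycin replicate 2. For mhc2dga and mhc2dgb it was lost without RFP rapamycin replicate 1 or 2 or 7 dpci replicate 2 or 3, with adjusted p up to 0.0823 and 0.143, and for mhc2dgb also with a replicate block. For 7 dpci against GFP-HRAS DMSO, mhc2dhb had -1.40 ± 0.93 (edgeR adjusted p = 0.269), with overlapping groups, and the other 2 chains did not pass either.

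The other genes of the pathway were taken from lists by role. In 7 dpci against RFP rapamycin, where 34.5% of all genes passed in either direction, 5 of 16 tested transcription genes for class II rose and 1 fell. The risers included IRF8 (log2 2.198 ± 0.32, edgeR adjusted p = 0.000427), a transcription factor of macrophages, dendritic cells and B cells, and both PU.1 genes, SPI1 (2.06 ± 0.42) and spi1a (1.93 ± 0.44), which act in myeloid and B cells. RFXAP, a subunit of the RFX complex, fell by 1.54 ± 0.33 (adjusted p = 0.00346).

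The RFX subunit genes rfx5 (0.33 ± 0.22, edgeR adjusted p = 0.263) and RFXANK (0.40 ± 0.34, 0.386), named here for their role after their values were seen, did not pass. ciita thus had a higher level in 7 dpci while none of the 3 RFX subunit genes passed upward. RFXAP had 45.6, 41.2 and 44.0 CPM in 7 dpci against 141, 137 and 103 in RFP rapamycin. The median of the list was 0.30, beside 0.00 over all genes.

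Of 14 processing and loading genes, 5 rose and 3 fell in 7 dpci against RFP rapamycin, with a median of 0.49. Over all genes, 34.5% passed in either direction. The cathepsin S genes ctss2.1 (log2 2.65 ± 0.39) and ctss2.2 (2.74 ± 0.40) rose, as did CTSZ, cathepsin Z (1.82 ± 0.19). Cathepsin S is the protease that trims the invariant chain in mammalian antigen presenting cells. ctss2.1 had 37.2, 28.3 and 41.5 CPM in 7 dpci and 6.33, 5.75 and 4.97 in RFP rapamycin, with no overlap. LAMP1, a lysosomal membrane protein, fell by 1.42 ± 0.35 (edgeR adjusted p = 0.00746).

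On the interferon gamma axis, 2 of 14 genes rose and 2 fell, with a median of -0.14, beside 34.5% of all genes passing in either direction. The guanylate-binding protein genes gbp1 (1.21 ± 0.28, edgeR adjusted p = 0.00523) and gbp2 (0.93 ± 0.21, 0.00442), interferon-induced in mammals, were higher in 7 dpci. The kinase gene jak2a was lower (-0.70 ± 0.23, edgeR adjusted p = 0.0337), a call lost with library totals and without RFP rapamycin replicate 1 or any 1 of the 7 dpci libraries (up to 0.169). ifng1, the cytokine gene itself and again named after its values were seen, was at 0.24 ± 1.30 (0.902).

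Class I presentation shows peptides from inside the cell to cytotoxic T cells. In the same comparison, 5 of its 25 genes rose and 4 fell, with a median of 0.17. Over all genes, 34.5% passed in either direction, a share close to that of this list. The chaperone genes CALR (1.97 ± 0.30, edgeR adjusted p = 0.000565) and tapbp.2 (1.52 ± 0.34, 0.00467) rose. The class I light chain genes b2m (-0.72 ± 0.16, 0.00401) and b2ml (-0.88 ± 0.15, 0.000956) fell, with b2m at 354, 348 and 405 CPM in 7 dpci against 527, 641 and 659.8 in RFP rapamycin. With library totals the counts of the class I list were 8 higher and 2 lower, and those of the processing and loading list 7 higher and 1 lower. No list gene called with TMM factors turned its direction.

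**Figure D4:**
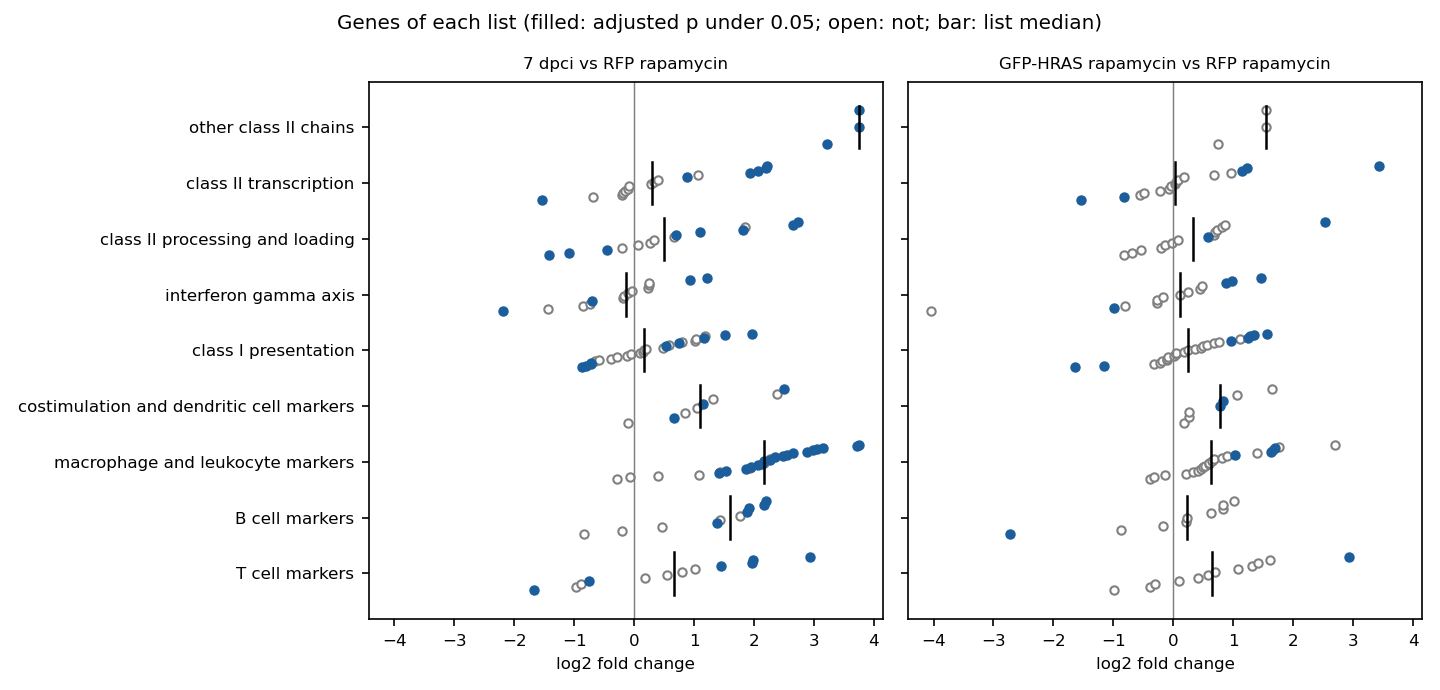
Log2 fold changes of the genes in 9 lists for 7 dpci against RFP rapamycin (left) and GFP-HRAS rapamycin against RFP rapamycin (right), filled at an edgeR adjusted p under 0.05, with the list median as a bar. On the left the leukocyte list has a median of 2.17 and the class I list one of 0.17, and on the right most genes of every list are open.

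Markers of the cells that carry class II were taken from further lists. In 7 dpci against RFP rapamycin, 18 of 26 tested macrophage and leukocyte markers rose and none fell, with a median of 2.17. Upward, 17.2% of all genes passed. SPI1 and ctss2.1 are in this list too. ptprc rose by 2.27 ± 0.29 (edgeR adjusted p = 0.00021), csf1ra by 3.05 ± 0.45 (0.000412) and havcr1, a phosphatidylserine receptor in mammals, by 3.76 ± 0.51 (0.000294). Over the 33 markers of the list in the tables, of which 1 was at 0 in all libraries, the summed level was 618 to 734 CPM in 7 dpci, 193 to 371 in GFP-HRAS rapamycin, 1007 to 1504 in GFP-HRAS DMSO, 167 to 294 in RFP rapamycin and 154 to 379 in RFP DMSO. Their part in the class II result was not tested.

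B cell markers had 5 of 10 genes higher and none lower in 7 dpci against RFP rapamycin, where 17.2% of all genes passed upward. Their median was 1.599. The signalling genes SYK (1.89 ± 0.31, edgeR adjusted p = 0.00077) and blnk (1.39 ± 0.36, 0.0107), which other leukocytes also express, were among the 5. The defining genes ighm (1.76 ± 0.83, 0.116) and cd79a (1.43 ± 1.05, 0.310), singled out after their values were seen, did not pass. The 16 markers in the tables summed to 53.9 to 72.4 CPM in 7 dpci, 29.1 to 37.4 in GFP-HRAS rapamycin, 105 to 236 in GFP-HRAS DMSO, 28.4 to 35.5 in RFP rapamycin and 28.3 to 51.2 in RFP DMSO, and their part was not tested.

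Costimulation and dendritic cell markers had 3 of 8 genes higher and none lower, with a median of 1.103. With library totals in place of TMM factors, 6 of the 8 were higher. Over all genes, 17.2% passed upward and 34.5% in either direction, which applies to the lists below too. cd40, the receptor through which helper T cells act on presenting cells, was 2.23-fold higher in 7 dpci than in RFP rapamycin (1.16 ± 0.21, edgeR adjusted p = 0.00156). cd83, a marker of mature dendritic cells in mammals and 1 of the 3 genes, also rose (2.49 ± 0.77, edgeR adjusted p = 0.0266). It did so from few counts, at 0.240, 0.377 and 0.547 CPM in 7 dpci against 0.0639, 0.112 and 0 in RFP rapamycin. With 22 counts in 7 dpci, 3 in RFP rapamycin and 63 in GFP-HRAS DMSO, cd83 passed the filter only through GFP-HRAS DMSO. Its values are therefore a description. Its call was lost without RFP rapamycin replicate 1 or 3 or 7 dpci replicate 2 or 3 (up to 0.0886). T cell markers had 4 of 12 genes higher and 2 lower (median 0.67), and their sum was 37.3 to 44.7 CPM in 7 dpci against 42.8 to 74.4 in RFP rapamycin. Of 13 tested cardiomyocyte markers, 1 fell (TNNT2, -1.02 ± 0.21, edgeR adjusted p = 0.00261), and of 13 endothelial markers 2 rose and 5 fell. With library totals, T cell markers had 4 higher and 0 lower, cardiomyocyte markers 2 and 1, and endothelial markers 2 and 4.

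cd74a is given here relative to leukocyte markers. Its counts per count of the summed leukocyte markers were 1.02 to 1.33 in 7 dpci, 0.469 to 0.711 in GFP-HRAS rapamycin, 2.198 to 2.39 in GFP-HRAS DMSO, 0.163 to 0.552 in RFP rapamycin and 0.224 to 0.546 in RFP DMSO. The GFP-HRAS DMSO and 7 dpci ranges overlapped no other group on this measure. Per ptprc count, cd74a was at 9.86 to 17.2 in 7 dpci, 5.30 to 8.04 in GFP-HRAS rapamycin, 14.1 to 25.6 in GFP-HRAS DMSO, 2.76 to 9.37 in RFP rapamycin and 2.67 to 5.79 in RFP DMSO, where 7 dpci and GFP-HRAS DMSO overlapped. These ratios were not tested, and the choice of the 6 genes used 3 of the 5 groups.

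**Figure D5:**
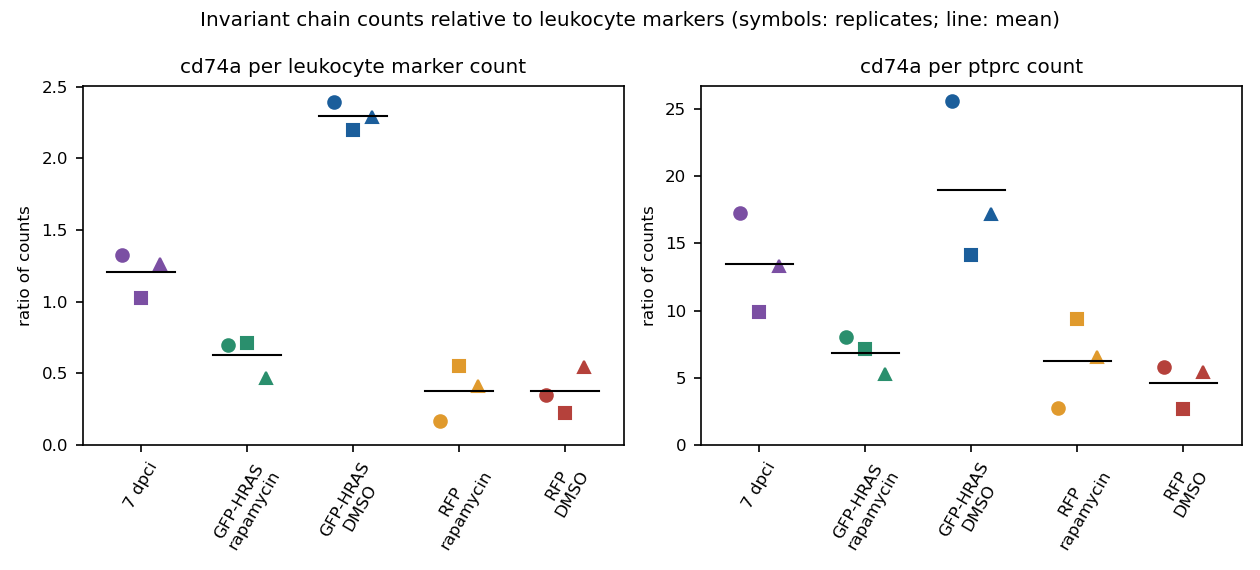
cd74a counts per summed leukocyte marker count (left) and per ptprc count (right) in each library, with the group mean as a line. GFP-HRAS DMSO is highest on the left at 2.198 to 2.39, 7 dpci is next at 1.02 to 1.33, and the 2 groups overlap on the right.

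In GFP-HRAS rapamycin against RFP rapamycin, where 18.1% of all genes passed in either direction, fewer list genes passed. Transcription had 3 of 16 higher and 2 lower, processing and loading 2 of 14 higher, the interferon gamma axis 3 of 13 higher and 1 lower, and class I 5 of 25 higher and 2 lower. Costimulation had 2 of 7 higher, the leukocyte markers 3 of 22 higher, B cell markers 0 of 9 higher and 1 lower, T cell markers 1 of 12 higher and the remaining class II chains 0 of 3. Cardiomyocyte markers had 1 of 13 higher and 2 lower, and endothelial markers 2 of 13 higher and 4 lower. The medians ran from -0.61 for endothelial markers to 1.55 for the class II chains, beside 0.00 over all genes.

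Named among them, gbp1 (log2 1.46 ± 0.30, edgeR adjusted p = 0.0103) kept its call in every alternative run. gbp2 (0.98 ± 0.22, 0.0150) lost it in the fit of the 6 libraries alone and without RFP rapamycin replicate 2, with adjusted p up to 0.0593. IRF8 (1.22 ± 0.35, 0.0341) lost it in that fit and without any 1 of 5 libraries, all but GFP-HRAS rapamycin replicate 3 (up to 0.148). RFXAP, at -1.55 ± 0.36 (0.0168), was lower here as in 7 dpci, and lost its call in that fit and without GFP-HRAS rapamycin replicate 1 or 2 or RFP rapamycin replicate 2 (up to 0.0695). Both comparisons share the RFP rapamycin libraries, so they are not separate evidence. RFXAP was highest in that group, with a mean of 127 CPM beside 74.9 in RFP DMSO. In RFP rapamycin against RFP DMSO, no gene of any list passed.

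Across the 15 libraries, the 6 genes followed one another: Pearson's r of log2 CPM for pairs ran from 0.839 for ciita and mhc2dab to 0.996 for cd74a and cd74b. The libraries share their groups, so these values mainly describe the group differences. These include the groups by which the 6 genes were chosen, so high values follow in part from that choice. The correlations, and the genes found most like the profiles below, are a description and no independent support. The 5 genes most like the mean profile of the 6 were ATP10D (r = 0.976, Spearman's rho = 0.961), IRF8 (0.976, 0.964), myo9b (0.9750, 0.868), ADA (0.974, 0.925) and rbm12ba (0.972, 0.961). Those most like ciita alone were itgb2 (r = 0.977), nacad (0.977), ENSDARG00000108038 (0.976), SLA (0.976) and ENSDARG00000114649 (0.9748). Over the 12 transgenic libraries alone, 0 of these 5 were again among the top 5, for either profile.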

How the data were processed

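Messenger RNA of ventricles was sequenced after RNA extraction with QIAzol, a micro column and DNase and library preparation with the CORALL kit, per the labels' protocols. Genome build GRCz11 and the programs featureCounts 1.6.0, HISAT2 2.1.0 and UMI-tools 1.1.1 are named per the submitters' processing notes. The sources used here give neither annotation release nor strand setting. The authors deposited whole-number counts per gene, not normalized, in 2 tables of 32520 identifiers, which were joined by identifier. Of these, 29201 had a symbol in the name table. Near-identical paralogues and overlapping genes may share reads, so the class II chains, a multigene family, are uncertain at the level of single genes.

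Each library was grouped by its title, with UR in a column name taken to mean UAS:RFP. The 3 uninjured samples were not analysed here. The labels do not say whether libraries of a group are separate animals or pools, so p-values measure the spread between these libraries, which may be technical. Replicate pairs differed by more than sampling noise.

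The test was edgeR 4.0.16 under R 4.3.3 (TMM factors, default filter by group, glmQLFit, glmQLFTest), Benjamini-Hochberg adjustment over all genes and a threshold of 0.05. The 12 transgenic libraries gave the comparisons among themselves (16044 genes) and all 15 those with 7 dpci (16421 genes). All 6 genes passed the filter in both fits; in the 6 RFP libraries alone 5 did, and mhc2dab did not. The SE is the absolute log2 fold change over the square root of F. Log2 CPM used a prior count of 2. Counting intervals (95%) and floors (3 counts) cover counting error only. Simulated counts were used to test the scripts. Alternatives were DESeq2 1.42.0, library totals, no filter, a replicate block, a fit of the 6 libraries compared alone and leaving out each library.

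The genes and lists were chosen with earlier results of these data known. List symbols were matched as written (115), by ignoring case (41) or by family symbol (29), and 35 were not found. Named genes were the 6, up to 10 other class II chains, up to 4 called genes a list by smallest adjusted p in GFP-HRAS rapamycin or 7 dpci against RFP rapamycin, and the 5 most like each of 2 profiles. Some genes that this rule names are not reported here.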

Additional observations from a re-analysis of the deposited data

Results flagged for a closer look

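Only the genes named by the rule above were searched here, not every gene of the lists. Of these, 3 had rapamycin values above DMSO in 1 line and below it in the other. For these 3, every library of each rapamycin group lay beyond every DMSO library of its line. How many of all genes do so was not counted, so nothing is read from the number 3. The 3 were picked out for this pattern, and the difference between the lines was not tested for them. None passed in the RFP line, where the edgeR adjusted p was 0.864 for gbp2, 1 for ERG and 0.994 for kdrl. gbp2, a guanylate-binding protein gene, had 13.6, 16.9 and 22.7 CPM in GFP-HRAS rapamycin against 40.5, 31.1 and 40.2 in GFP-HRAS DMSO, a log2 fold change of -1.08, and 9.91, 8.99 and 7.98 in RFP rapamycin against 4.05, 4.95 and 5.62 in RFP DMSO, one of 0.88. ERG, an endothelial transcription factor gene, had a log2 fold change of 0.47 in the GFP-HRAS line and -0.14 in the RFP line. Its RFP groups barely separated, with at most 78.8 CPM in RFP rapamycin and at least 79.1 in RFP DMSO. kdrl, an endothelial receptor gene, had a log2 fold change of 0.93 in the GFP-HRAS line and -0.36 in the RFP line. Its RFP groups nearly touched, with at most 418.2 CPM in RFP rapamycin and at least 418.4 in RFP DMSO. Gaps this small do not show an opposite effect in the RFP line for ERG or kdrl. The gbp2 difference in the RFP line was called in 0 of 11 alternative runs, so an opposite effect is not shown for gbp2 either. None of the 6 class II pathway genes showed this pattern.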

How the results depend on the processing

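Over the 6 tested comparisons, the signs of the 6 genes held in every alternative, except in RFP rapamycin against RFP DMSO, where nothing was called. The calls that changed are given in the report. Counts over all genes moved more. For GFP-HRAS rapamycin against RFP rapamycin, 2909 genes were called, 838 in the fit of the 6 libraries alone and 881 (without RFP rapamycin replicate 2) to 4864 (without GFP-HRAS rapamycin replicate 3) when a library was left out. For RFP rapamycin against RFP DMSO, 0 became 27 in DESeq2 and 0 to 2 in the leave-outs. Leaving out a library gave 2948 to 4296 for 7 dpci against GFP-HRAS DMSO (4733 with all) and 1405 to 3470 for 7 dpci against GFP-HRAS rapamycin (3046). GFP-HRAS rapamycin against GFP-HRAS DMSO had 1947 calls, 3126 in DESeq2, 766 in the fit of the 6 libraries alone, 3472 with library totals, 1271 with a replicate block and 533 to 2305 in the leave-outs. In the same-number pairs, correlations of deviations ran from -0.33 to 0.16 and 2 of 30 were over 0.1. No pairing by number was seen, but 3 libraries a group are too few to exclude it. 11 of 60 matched best with their own number, and the block changed the calls named in the report and no other call of the 6 genes.

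Library totals in place of TMM factors moved the median of all genes by up to 0.46 on the log2 scale (GFP-HRAS DMSO against RFP DMSO). The share of calls that were higher was then 77.1% beside 52.4% there, 7.32% beside 48.1% for GFP-HRAS rapamycin against GFP-HRAS DMSO, 21.8% beside 46.3% for 7 dpci against GFP-HRAS DMSO, 62.9% beside 45.1% for 7 dpci against GFP-HRAS rapamycin, 62.3% beside 51.5% against RFP DMSO and 69.2% beside 49.7% against RFP rapamycin, and 68.2% beside 57.5% for GFP-HRAS rapamycin against RFP rapamycin. Depth limits ciita, mhc2d4b and mhc2dab in the RFP libraries, which rest on few counts.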
